A study of Arabidopsis thaliana with 12 samples.

Results

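The glutathione S-transferases described here were the 28 tau-class genes GSTU1 to GSTU28 and 12 phi-class genes, GSTF2 to GSTF11, GSTF13 and GSTF14. They were chosen by class and not by a cut on measured values, though with earlier results of these data known. The phi gene TT19 was left out. These 40 genes were among 24698 named genes on a one-colour Arabidopsis thaliana microarray, all 40 had at least 1 probe, and 39 passed the filter on dim probes. GSTU15 did not pass it, because its probe was dim, below the 20th percentile of the array, on all 12 arrays, and it was not tested. GSTU17 carries the symbol ERD9 in RefSeq.

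The series asked how transgenic seedlings that express SvGRP, a glycine-rich RNA-binding protein gene of the species the series writes as S. virginics, differ from wild type under salt. SvGRP seedlings and wild-type seedlings of the Col-0 accession grew for 5 days on 1/2 MS plates and then spent 24 h on medium with 150 mM or 0 mM NaCl. Whole seedlings were harvested at 6 days of age, and 3 arrays were hybridised for each of SvGRP at 150 mM, SvGRP at 0 mM, wild type at 150 mM and wild type at 0 mM. The promoter that drives SvGRP, the number of transgenic lines and any pooling of seedlings are not stated in the labels. The transgene itself was not analysed here. Nothing in the labels says whether replicates were grown separately, so p-values reflect no more than the spread of these samples, possibly a technical one.

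Glutathione S-transferases join the tripeptide glutathione to electrophilic compounds, and the conjugates are then carried into the vacuole by ABCC transporters and broken down. The tau and phi classes are plant classes with a catalytic serine, and many of their genes sit in tandem clusters. They are known for induction by herbicides, safeners and oxidative stress. Some members also serve biosynthesis, among them GSTF6 in the defence compound camalexin and GSTF9, GSTF10, GSTF11 and GSTU20, which have been proposed to act in glucosinolate synthesis.

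A level below is the log2 processed signal minus the 75th percentile of its array, so 0 marks that percentile and 1 unit is a doubling. Levels of different probes were not compared. A difference was called when its adjusted p was under 0.05 in limma, fitted over all 26796 genes and unnamed probes that passed the filter. Median signal per array was between 675 and 1012, and replicate arrays correlated at 0.990 to 0.997. Precision is limited by the number of arrays.

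The 12 arrays were spread over 3 slides, 4 on each. On slide 1 were all 3 arrays of wild type at 0 mM with replicate 1 of wild type at 150 mM. Slide 2 held replicates 2 and 3 of wild type at 150 mM with replicates 1 and 2 of SvGRP at 0 mM, and slide 3 held replicate 3 of SvGRP at 0 mM with the 3 SvGRP arrays at 150 mM. With slide as a term, the salt difference is therefore the difference within slide 1 for wild type and within slide 3 for SvGRP, each resting on 1 array in 1 of its groups. SvGRP and wild type never shared a slide at equal NaCl, so within-slide values of the genotype differences could not be had. With slide as a term, a genotype difference joins a salt difference within a slide to the slide 2 difference between SvGRP and wild type. It is therefore less precise than the genotype difference without slide. The value of the fit with slide is given in parentheses after each called difference of the members, and "not called" in the same place means that this fit did not call it.

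Scaling to 8 E1A spike-in probes in place of the 75th percentile moved the median of all genes to 0.16 for salt in SvGRP, 0.46 for salt in wild type, 0.39 for SvGRP against wild type at 0 mM, 0.14 at 150 mM and -0.24 for the interaction. All changes are therefore relative to the bulk of the genes on the array. Both tissues of a whole seedling were seen in the RNA: all 5 shoot markers and all 6 root markers were above the dim threshold on every array.

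Salt changed most of these genes in both genotypes, in both directions. In SvGRP seedlings 14 members rose and 14 fell, or 71.8% of the 39 tested, against 68.8% of all genes (31.0% higher and 37.8% lower). In wild type 17 rose and 11 fell, again 71.8%, against 63.2% of all genes (33.1% higher and 30.1% lower). The shares called were thus close to those of the array as a whole. The median difference of the members was -0.04 in SvGRP and 0.17 in wild type, beside -0.07 and 0.04 for all genes. By class, 10 tau genes rose and 11 fell of 27 in SvGRP, against 12 and 8 in wild type, and 4 phi genes rose and 3 fell of 12 in SvGRP, against 5 and 3 in wild type.

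With slide in the fit, 13 members rose and 10 fell in SvGRP, where 54.1% of all genes were called (25.3% higher and 28.8% lower), and 11 rose and 8 fell in wild type, where 45.7% were called (22.5% higher and 23.2% lower). Of these, 22 in SvGRP and 19 in wild type were called in the same direction without slide. Under E1A scaling the counts were 15 higher and 8 lower in SvGRP, against 38.6% higher and 21.1% lower among all genes, and 25 higher and 4 lower in wild type, against 60.8% higher and 9.90% lower. The 150 mM and 0 mM arrays did not overlap for 28 of 39 members in SvGRP, or 71.8%, against 74.7% of all genes. They did not overlap for 28 of 39 in wild type either, against 69.5% of all genes.

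**Figure D1:**
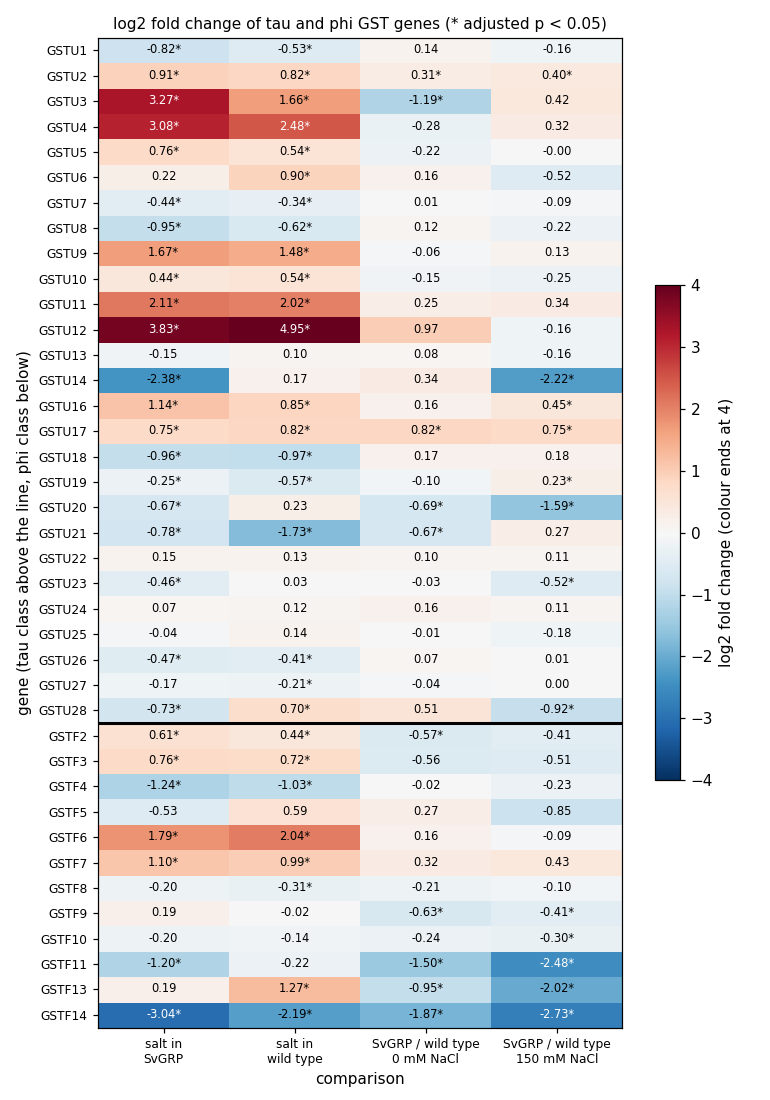
Log2 differences of the 39 tested tau and phi genes (one line each) in the columns salt in SvGRP, salt in wild type, SvGRP against wild type at 0 mM and SvGRP against wild type at 150 mM, with an asterisk where limma called them without slide in the fit. Colour gives size and direction. The strongest colours are in the salt columns, with GSTU12 at 3.83 in SvGRP and 4.95 in wild type and GSTF14 at -3.04 and -2.19. Values of GSTU3 that rest on SvGRP at 0 mM are fitted values of a probe that was dim there.

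Across both genotypes, 14 members rose with salt in each: GSTU2, GSTU3, GSTU4, GSTU5, GSTU9, GSTU10, GSTU11, GSTU12, GSTU16, GSTU17, GSTF2, GSTF3, GSTF6 and GSTF7. Another 9 fell in each: GSTU1, GSTU7, GSTU8, GSTU18, GSTU19, GSTU21, GSTU26, GSTF4 and GSTF14. In SvGRP alone GSTU14, GSTU20, GSTU23 and GSTF11 passed the test, all lower. In wild type alone GSTU6 and GSTF13 rose and GSTU27 and GSTF8 fell. A call in SvGRP or wild type alone is not itself a difference between the genotypes. The interaction, tested below, was called for GSTU14, GSTU20 and GSTF11, but not for GSTU23, GSTU6, GSTF13, GSTU27 or GSTF8. In SvGRP GSTU27 was at -0.17 and just missed the test (adjusted p = 0.094 in limma). GSTU28 was called in opposite directions, and GSTU13, GSTU22, GSTU24, GSTU25, GSTF5, GSTF9 and GSTF10 were called in neither genotype. GSTF9 depended on the fit and the scaling. In SvGRP it was at 0.19, but was called higher with slide (0.31), under E1A scaling (0.42) and under quantile normalization (0.49). In wild type it was at -0.02, was called higher under E1A scaling (0.41) and quantile normalization (0.50), and was not called with slide (0.06).

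Among the tau genes the salt response was largest for GSTU12 (AT1G69920). Its levels were -1.45, -0.95 and -1.27 in SvGRP at 150 mM, against -5.81, -5.06 and -4.28 in SvGRP at 0 mM. In wild type they were -0.90, -1.24 and -1.05 at 150 mM, against -5.10, -6.46 and -6.49 at 0 mM. All 150 mM arrays lay above all 0 mM arrays, and the 0 mM arrays spread more widely than the 150 mM arrays. The change was 3.83 ± 0.43 (SE, n = 3 each; 3.05), or 14.2-fold, in SvGRP (adjusted p = 2.9e-05), and 4.95 ± 0.43 (5.12), or 31-fold, in wild type (adjusted p = 9.7e-06).

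GSTU4 (AT2G29460), which has been proposed to act in camalexin synthesis, had levels of -0.90, -0.20 and 0.29 in SvGRP at 150 mM, against -3.06, -3.29 and -3.69 in SvGRP at 0 mM. In wild type it had -0.53, -0.47 and -0.76 at 150 mM, against -2.97, -3.09 and -3.14 at 0 mM. The groups did not overlap in either genotype, and the SvGRP arrays at 150 mM spread more than the wild-type arrays at 150 mM. It rose by 3.08 ± 0.26 (3.42) in SvGRP (adjusted p = 5.1e-06) and by 2.48 ± 0.26 (2.54) in wild type (adjusted p = 3.1e-05). The probe of GSTU4 with the second highest mean gave 0.56 in SvGRP (adjusted p = 0.20) and 0.98 in wild type (adjusted p = 0.038), and it was dim on 2 of 3 wild-type arrays at 0 mM. The third probe was called higher in both genotypes, with fitted values of 1.04 in SvGRP and 0.63 in wild type that give no size, since it was dim on every array of SvGRP at 0 mM and of wild type at both NaCl levels.

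GSTU3 (AT2G29470), the neighbour of GSTU4, had levels of -5.17, -4.66 and -4.45 in SvGRP at 150 mM, against -7.71, -7.59 and -8.79 in SvGRP at 0 mM. In wild type it had -5.17, -4.97 and -5.39 at 150 mM, against -6.67, -6.84 and -7.00 at 0 mM. The probe was dim on all 3 SvGRP arrays at 0 mM, so only a bound can be given there: GSTU3 was at least 7.85-fold higher with salt in SvGRP (adjusted p = 8.3e-06), where the dim arrays were set to the higher of their own signal and the dim threshold. With slide in the fit this call was kept (fitted value 4.03, adjusted p = 6.1e-05), and that fitted value is no bound. In wild type it rose by 1.66 ± 0.30 (1.67; adjusted p = 8.7e-04).

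Further tau genes rose in both genotypes. GSTU11 rose by 2.11 ± 0.49 (2.07) in SvGRP and by 2.02 ± 0.49 (2.89) in wild type, and GSTU9 by 1.67 ± 0.19 (1.83) and 1.48 ± 0.19 (1.04). GSTU16 rose by 1.14 ± 0.12 (1.17) in SvGRP and by 0.85 ± 0.12 (1.02) in wild type. GSTU2 rose by 0.91 (0.91) in SvGRP and 0.82 (0.62) in wild type, and GSTU5 by 0.76 (0.81) and 0.54 (0.75). GSTU10 had the smallest of these changes, 0.44 (0.61) in SvGRP and 0.54 (0.36, not called) in wild type. The GSTU10 call in SvGRP was lost when SvGRP at 150 mM lacked replicate 2 (0.33, adjusted p = 0.074) and also without replicate 1 or replicate 3 of SvGRP at 0 mM. GSTU6 was at 0.22 in SvGRP, which did not pass the test, and rose by 0.90 (1.11) in wild type.

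GSTU17 (AT1G10370), known from drought and light signalling, had levels of 1.75, 2.42 and 2.32 in SvGRP at 150 mM, against 1.30, 1.42 and 1.5 in SvGRP at 0 mM. In wild type it had 1.64, 1.25 and 1.34 at 150 mM, against 0.78, 0.47 and 0.52 at 0 mM. The groups did not overlap within a genotype, and salt raised GSTU17 by 0.75 ± 0.17 (0.66; adjusted p = 0.0030) in SvGRP and by 0.82 ± 0.17 (1.05; adjusted p = 0.0021) in wild type. Of its 3 probes, another gave 0.76 in SvGRP and 0.82 in wild type, and the third gave 0.24 and 0.09, neither of which passed the test.

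Of the phi genes, the stress-induced GSTF6 (AT1G02930) rose most. GSTF6 is also known as ERD11, and its enzyme joins glutathione to the camalexin precursor. Its levels were 2.31, 2.84 and 2.80 in SvGRP at 150 mM, against 0.59, 1.08 and 0.90 in SvGRP at 0 mM. In wild type they were 2.84, 2.84 and 2.54 at 150 mM, against 1.62, 0.12 and 0.35 at 0 mM. Replicate 1 of wild type at 0 mM stood above the other 5 arrays at 0 mM, yet below every array at 150 mM. The rise was 1.79 ± 0.34 (1.75; adjusted p = 9.6e-04) in SvGRP and 2.04 ± 0.34 (2.14; adjusted p = 5.1e-04) in wild type.

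GSTF7 (AT1G02920), a close paralog of GSTF6, had levels of -0.75, -0.60 and -0.59 in SvGRP at 150 mM, against -1.96, -1.58 and -1.71 in SvGRP at 0 mM. In wild type GSTF7 had -1.07, -0.83 and -1.32 at 150 mM, against -1.48, -2.43 and -2.27 at 0 mM, with the same replicate 1 highest at 0 mM. It rose by 1.10 ± 0.23 (1.06; adjusted p = 0.0016) in SvGRP and by 0.99 ± 0.23 (1.0, not called; adjusted p = 0.0035 without slide) in wild type.

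GSTF2 (AT4G02520), whose protein binds flavonoids and camalexin, had levels of 2.49, 2.57 and 2.70 in SvGRP at 150 mM, against 2.00, 1.91 and 2.04 in SvGRP at 0 mM. In wild type GSTF2 had 3.03, 3.17 and 2.78 at 150 mM, against 2.88, 2.60 and 2.18 at 0 mM, and these wild-type groups overlapped. It rose by 0.61 ± 0.16 (0.55, not called; adjusted p = 0.0066) in SvGRP and by 0.44 ± 0.16 (0.48, not called; adjusted p = 0.033) in wild type. The wild-type call ended without replicate 3 of wild type at 0 mM (0.26, adjusted p = 0.11), and also without replicate 2 of that group or replicate 1 or 2 of wild type at 150 mM. GSTF3, its near-identical copy, rose by 0.76 (0.68, not called) in SvGRP and 0.72 (0.69, not called) in wild type. GSTF2 and GSTF3, and GSTF6 and GSTF7, are similar enough that a probe of one may detect the other, which was not tested because no probe sequences were given.

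**Figure D2:**
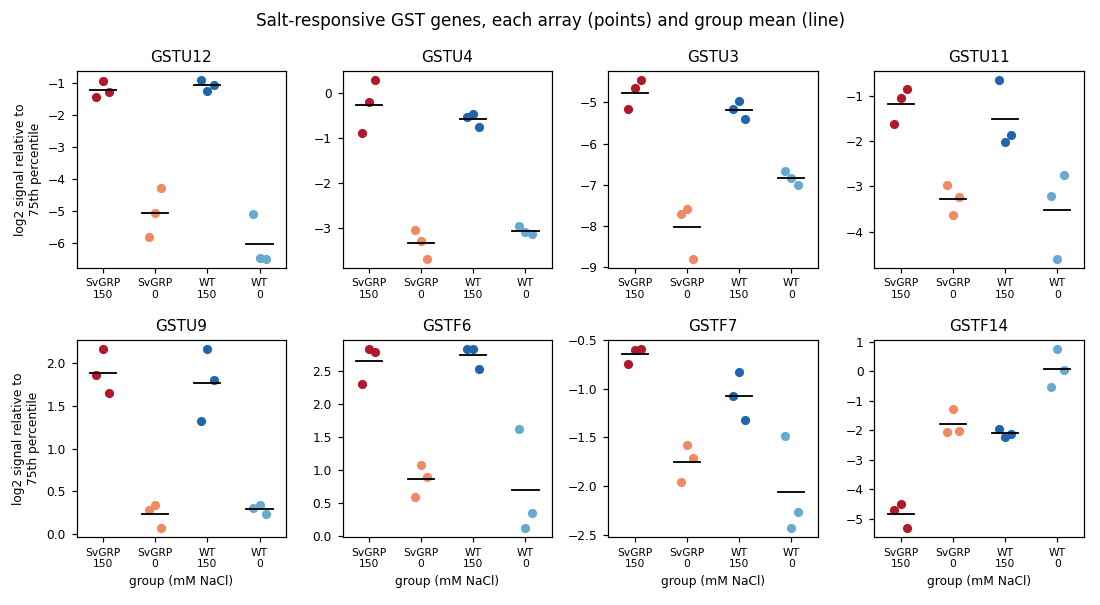
Levels of 8 salt-responsive members on each array (points) with group means (lines), as log2 signal over each array's 75th percentile, in SvGRP at 150 and 0 mM and wild type (WT) at 150 and 0 mM NaCl. Within each genotype the 3 arrays at 150 mM lie apart from the 3 at 0 mM in every panel, above them for 7 genes and below them for GSTF14. GSTU3 was dim on all 3 SvGRP arrays at 0 mM.

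The largest fall with salt was that of GSTF14 (AT1G49860), a phi gene. Its levels were -4.69, -4.50 and -5.31 in SvGRP at 150 mM, against -2.07, -1.28 and -2.01 in SvGRP at 0 mM. In wild type they were -1.94, -2.23 and -2.14 at 150 mM, against -0.53, 0.76 and 0.03 at 0 mM. The groups did not overlap within a genotype, and the levels of SvGRP at 0 mM overlapped those of wild type at 150 mM. GSTF14 fell by 3.04 ± 0.34 on the log2 scale in SvGRP (-2.82 with slide; adjusted p = 2.7e-05) and by 2.19 ± 0.34 in wild type (-2.02 with slide; adjusted p = 3.1e-04).

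GSTU21 and GSTF4 also fell in both genotypes. GSTU21, from the same tandem run as GSTU19 and GSTU20, changed by -0.78 ± 0.16 (-0.78) in SvGRP and by -1.73 ± 0.16 (-1.46) in wild type, where its probe was dim on 2 of 3 arrays at 150 mM. GSTF4 changed by -1.24 ± 0.13 (-1.22) in SvGRP and by -1.03 ± 0.13 (-1.06) in wild type. GSTU18, the neighbour of GSTU17, moved the other way from it, at -0.96 ± 0.14 (-1.0) and -0.97 ± 0.14 (-0.95). GSTU8 changed by -0.95 (-0.93) in SvGRP and -0.62 (-0.62) in wild type, and GSTU1 by -0.82 (-0.79) and -0.53 (-0.59). The falls of GSTU7, -0.44 (-0.45) in SvGRP and -0.34 (-0.39) in wild type, and of GSTU26, -0.47 (-0.43, not called) and -0.41 (-0.40, not called), were small, and both wild-type values turned positive under E1A scaling, at 0.09 and 0.02.

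GSTU19 (AT1G78380), an abundant enzyme induced by herbicide safeners, had levels of 5.32, 5.24 and 5.46 in SvGRP at 150 mM, against 5.62, 5.53 and 5.60 in SvGRP at 0 mM. In wild type GSTU19 had 5.26, 5.02 and 5.06 at 150 mM, against 5.68, 5.69 and 5.69 at 0 mM. The groups did not overlap, but the falls were small, -0.25 ± 0.07 (-0.26; adjusted p = 0.013) in SvGRP and -0.57 ± 0.07 (-0.43; adjusted p = 9.8e-05) in wild type. Under quantile normalization neither was called: the SvGRP value of GSTU19 was positive, 0.12, and the wild-type value was -0.13 (adjusted p = 0.25). The SvGRP call also ended without replicate 2 of SvGRP at 150 mM (-0.19, adjusted p = 0.052).

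GSTF8 (AT2G47730), an early stress marker with an ocs element in its promoter, had levels of 2.02, 2.16 and 2.31 in SvGRP at 150 mM, against 2.42, 2.38 and 2.31 in SvGRP at 0 mM, groups that met at 2.31. In wild type GSTF8 had 2.37, 2.23 and 2.21 at 150 mM, against 2.68, 2.45 and 2.60 at 0 mM, without overlap. Its difference was -0.20 ± 0.09 (-0.14, not called; adjusted p = 0.060 without slide) in SvGRP and -0.31 ± 0.09 (-0.21, not called; adjusted p = 0.011) in wild type, where E1A scaling gave 0.12.

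GSTU24 and GSTU25, which detoxify trinitrotoluene and respond to many xenobiotics, did not pass the test in any comparison. GSTU24 (AT1G17170) had levels of 2.93, 3.22 and 3.41 in SvGRP at 150 mM, against 3.22, 3.10 and 3.02 in SvGRP at 0 mM. In wild type GSTU24 had 3.08, 3.06 and 3.10 at 150 mM, against 3.12, 2.71 and 3.04 at 0 mM. The groups overlapped in both genotypes, with differences of 0.07 ± 0.13 in SvGRP and 0.12 ± 0.13 in wild type.

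GSTU25 (AT1G17180) had levels of 2.62, 2.58 and 2.62 in SvGRP at 150 mM, against 2.77, 2.53 and 2.66 in SvGRP at 0 mM, and in wild type 2.55, 2.87 and 2.95 at 150 mM, against 2.84, 2.18 and 2.94 at 0 mM. These groups overlapped too, with differences of -0.04 ± 0.18 in SvGRP and 0.14 ± 0.18 in wild type. Under E1A scaling, which moved the median of all genes by 0.46 for salt in wild type, GSTU24 and GSTU25 were called higher there, at 0.55 and 0.56. GSTU27 was at -0.21 (-0.30, not called) in wild type, a call that was lost when any array but those of SvGRP at 150 mM was left out (values of -0.24 to -0.17, adjusted p up to 0.14), and that turned to 0.21 under E1A scaling.

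E1A scaling also ended calls by moving all values up. For salt in SvGRP the calls it ended were those of GSTU7, GSTU19, GSTU20, GSTU23, GSTU26 and GSTU28, and for salt in wild type, beside the values that turned positive, those of GSTU1, GSTU8 and GSTU19. Every rise named above for both genotypes was called under E1A scaling as well.

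The genes lie in clusters, and neighbours did not always move together. Counting members with at most 10 protein-coding genes between them as 1 run in the TAIR10.1 annotation, 29 members formed 9 runs and 11 stood alone. In the run of GSTU1 to GSTU7, 4 genes rose and 2 fell in SvGRP, against 5 and 2 in wild type. In the run of GSTF4 to GSTF7, GSTF6 and GSTF7 rose and GSTF4 fell in both genotypes. GSTU17 rose and GSTU18 fell, while GSTU11 and GSTU12 both rose. In the run of GSTU19 to GSTU23, none rose and 4 fell in SvGRP, against 2 in wild type. In each genotype 3 of the 9 runs held calls in both directions with salt.

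Without salt, SvGRP seedlings differed from wild type in few of these genes, mostly downward. At 0 mM 2 members were higher and 8 lower, or 25.6% of the 39 tested, against 21.2% of all genes (10.5% higher and 10.8% lower). The 2 higher genes were GSTU2 and GSTU17, and the 8 lower ones were GSTU3, GSTU20, GSTU21, GSTF2, GSTF9, GSTF11, GSTF13 and GSTF14. Of the 12 phi genes 5 were lower and none higher in limma, and at an unadjusted p under 0.05 there were 8 lower and again none higher, where 16.6% of all genes were lower and 19.4% higher. With slide in the fit 3 phi genes were lower and none higher at an unadjusted p under 0.05, against 8.71% lower and 5.47% higher among all genes. Under E1A scaling 3 were lower and 2 higher, against 3.03% lower and 64.5% higher among all genes. The median difference was -0.40 over the phi genes and 0.08 over the 27 tau genes, beside 0.03 over all genes.

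At 150 mM 4 members were higher and 9 lower, or 33.3%, against 28.8% of all genes (10.2% higher and 18.6% lower). GSTU2, GSTU16, GSTU17 and GSTU19 were higher, and GSTU14, GSTU20, GSTU23, GSTU28, GSTF9, GSTF10, GSTF11, GSTF13 and GSTF14 were lower. Again 5 of 12 phi genes were lower and none higher, with 8 lower and none higher at an unadjusted p under 0.05, where 25.1% of all genes were lower and 16.6% higher. At that level 3 phi genes were lower and none higher with slide in the fit, against 10.7% lower and 4.87% higher among all genes. Likewise 3 and none were called so under E1A scaling, against 11.1% lower and 27.1% higher among all genes. The phi median was -0.41, beside 0.00 for tau genes and -0.02 for all genes. The members lower at both NaCl levels were GSTU20, GSTF9, GSTF11, GSTF13 and GSTF14. The 0 mM and 150 mM comparisons share no arrays. They do share the estimate of the spread, and in neither were SvGRP and wild type on a common slide. The genotype groups did not overlap for 18 of 39 members at 0 mM, where 50.3% of all genes did not overlap, and for 16 of 39 at 150 mM, where 40.2% did not.

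The genotype calls depended on whether slide was in the fit and on the scaling more than the salt calls did. The fit with slide is less precise for genotype differences, and calls were lost both with and without a change in value. GSTU20 at 150 mM was at -1.59 without slide and -1.56 with it, and GSTU2 at 0 mM at 0.31 and 0.01. What ended the calls was not tested. With slide in the fit limma called none of the 39 members at 0 mM, where it called 0.922% of all genes (0.302% higher and 0.619% lower). At an unadjusted p under 0.05 that fit had 1 member higher and 4 lower, against 5.47% and 8.71% of all genes. With slide GSTF11 alone was called at 150 mM, lower, where 0.892% of all genes were called (0.127% higher and 0.765% lower). At an unadjusted p under 0.05 there were 2 members higher and 6 lower, against 4.87% and 10.7% of all genes. Under E1A scaling 16 members were higher and 3 lower at 0 mM, the 3 being GSTU3, GSTF11 and GSTF14, against 59.3% higher and 2.65% lower among all genes. At 150 mM 4 were higher and 6 lower under that scaling, against 13.7% higher and 7.18% lower among all genes. At the level of single genes, the genotype differences below are those of the fit without slide, and slide and genotype are not fully separate in this design.

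GSTF11 (AT3G03190), a gene proposed to act in the synthesis of methionine-derived glucosinolates, differed most clearly. Its levels were -3.65, -3.59 and -3.32 in SvGRP at 150 mM, against -0.81, -1.34 and -0.96 in wild type at 150 mM. At 0 mM they were -2.40, -2.14 and -2.41 in SvGRP, against -0.72, -0.76 and -0.96 in wild type. Every SvGRP array lay below every wild-type array. The difference was -2.48 ± 0.15 at 150 mM (-2.23 with slide, adjusted p = 0.017), or 5.6-fold lower in SvGRP, with an adjusted p of 1.2e-05 without slide. At 0 mM it was -1.5 ± 0.15 (-1.12, not called; adjusted p = 2.3e-04).

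GSTU20 (AT1G78370), a tau gene also proposed to act in glucosinolate synthesis and known as a partner of the jasmonate enzyme JAR1, had levels of 1.79, 2.25 and 2.43 in SvGRP at 150 mM, against 3.82, 3.68 and 3.75 in wild type at 150 mM. At 0 mM GSTU20 had 2.70, 2.95 and 2.83 in SvGRP, against 3.76, 3.42 and 3.38 in wild type. SvGRP arrays were below wild-type arrays at each NaCl level, with differences of -1.59 ± 0.16 at 150 mM (-1.56, not called; adjusted p = 1.9e-04) and -0.69 ± 0.16 at 0 mM (-0.59, not called; adjusted p = 0.015). The 0 mM call ended without replicate 1 of SvGRP at 0 mM (-0.63, adjusted p = 0.056) and under E1A scaling (-0.33).

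The other glucosinolate-linked phi genes moved the same way, by less on the probes used. GSTF9 was lower in SvGRP, with differences of -0.41 ± 0.09 at 150 mM (-0.19, not called) and -0.63 ± 0.09 at 0 mM (-0.45, not called). Its other probes were called lower too without slide, at -0.71 and -0.82 at 150 mM and at -0.57 and -0.80 at 0 mM. GSTF10 was lower at 150 mM, with a difference of -0.30 ± 0.09 (-0.38, not called), and its difference of -0.24 at 0 mM did not pass the test. E1A scaling ended the calls of GSTF9 at both NaCl levels and of GSTF10 at 150 mM, and the GSTF10 call was also lost when replicate 1 or 2 of either 150 mM group was left out (-0.29 to -0.26, adjusted p up to 0.083).

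GSTF14, described above for salt, was lower in SvGRP, with a difference of -2.73 ± 0.34 at 150 mM (-2.31, not called; adjusted p = 5.4e-04) and of -1.87 ± 0.34 at 0 mM (-1.51, not called; adjusted p = 0.0051), without overlap of the groups. GSTF13 (AT3G62760) had levels of -6.11, -5.37 and -5.70 in SvGRP at 150 mM, against -4.17, -3.32 and -3.61 in wild type at 150 mM, and -5.65, -5.73 and -6.37 in SvGRP at 0 mM, against -4.61, -5.24 and -5.06 in wild type at 0 mM. The SvGRP arrays lay below the wild-type arrays at both NaCl levels. The difference was -2.02 ± 0.28 at 150 mM (-1.58, not called; adjusted p = 0.0010) and -0.95 ± 0.28 at 0 mM (-1.42, not called; adjusted p = 0.041), and the 0 mM call was lost when any 0 mM array, or replicate 3 of either 150 mM group, was left out (-1.08 to -0.72, adjusted p up to 0.13).

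GSTF13 also rose with salt in wild type, by 1.27 ± 0.28 (0.80, not called), while in SvGRP its value was 0.19 ± 0.28 (0.64, not called). The difference of these responses was -1.07 ± 0.40 and did not pass the test (adjusted p = 0.12). GSTF2 was lower in SvGRP at 0 mM, with a difference of -0.57 ± 0.16 (-0.55, not called; adjusted p = 0.032), with SvGRP levels of 2.00, 1.91 and 2.04 below the wild-type levels of 2.88, 2.60 and 2.18. Of the 4 probes of GSTF2 no other was called at 0 mM, and the other 3 had -0.52, -0.54 and -0.44 with adjusted p-values of 0.074, 0.078 and 0.11. That GSTF2 call ended under E1A scaling (-0.21), and when any SvGRP array at 0 mM or replicate 1 or 2 of wild type at 0 mM was left out (-0.60 to -0.41, adjusted p up to 0.097).

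GSTU17 was the clearest gene higher in SvGRP, by 0.75 ± 0.17 at 150 mM (0.72, not called; adjusted p = 0.010) and 0.82 ± 0.17 at 0 mM (1.12, not called; adjusted p = 0.010). Its SvGRP levels, given above, lay above the wild-type levels at the same NaCl level on every array, and its 3 probes were all called higher at both NaCl levels. GSTU2 was higher by 0.40 ± 0.09 at 150 mM (0.30, not called) and 0.31 ± 0.09 at 0 mM (0.01, not called), and its 0 mM call was lost when any SvGRP array at 0 mM, replicate 2 or 3 of wild type at 0 mM or replicate 2 of wild type at 150 mM was left out (0.26 to 0.34, adjusted p up to 0.12). GSTU16 was higher at 150 mM by 0.45 ± 0.12 (0.57, not called), a call that was lost when replicate 2 or 3 of either 150 mM group was left out (0.37 to 0.42, adjusted p up to 0.078). GSTU19 was higher at 150 mM by 0.23 ± 0.07 (0.28, not called), a call that was lost when any array but replicate 2 of SvGRP and replicate 1 of wild type at 150 mM was left out (0.17 to 0.24, adjusted p up to 0.14), and another of its 4 probes was called lower, at -0.31.

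GSTU3 was at least 1.86-fold lower in SvGRP at 0 mM (adjusted p = 0.021; fitted value with slide -0.80, not called, adjusted p = 0.37), since its probe was dim on all 3 SvGRP arrays there, and this call ended without replicate 1 (-1.11, adjusted p = 0.064) or replicate 2 of wild type at 0 mM. GSTU21 was lower at 0 mM, with a difference of -0.67 ± 0.16 (-0.27, not called), which ended without replicate 1 of SvGRP at 0 mM (-0.57, adjusted p = 0.057) and under E1A scaling (-0.32). GSTU23 was lower at 150 mM, with a difference of -0.52 ± 0.13 (-0.63, not called), which ended under E1A scaling (-0.36).

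**Figure D3:**
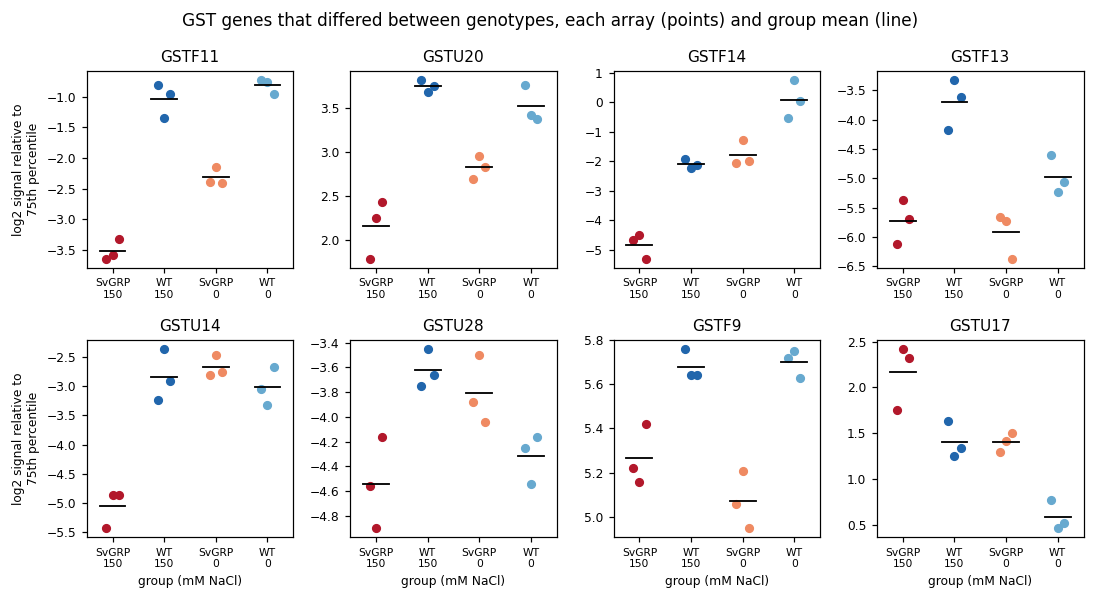
Levels of 8 members that differed between genotypes on each array (points) with group means (lines), as log2 signal over each array's 75th percentile, in SvGRP and wild type (WT) at 150 mM and then SvGRP and wild type at 0 mM NaCl. GSTF11, GSTU20, GSTF14, GSTF13 and GSTF9 lie lower in SvGRP at both NaCl levels and GSTU17 higher, while GSTU14 and GSTU28 lie lower in SvGRP at 150 mM.

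For 6 members the salt response itself differed between genotypes. The interaction, the salt response in SvGRP minus that in wild type, was positive for GSTU3 and GSTU21 and negative for GSTU14, GSTU20, GSTU28 and GSTF11, 15.4% of the members tested, against 8.96% of all genes (2.52% higher and 6.45% lower). With slide in the fit limma called none of the 39, where 0.515% of all genes were called (0.198% higher and 0.317% lower). At an unadjusted p under 0.05 that fit had 3 members higher and 5 lower, against 5.22% and 7.43% of all genes. E1A scaling called the same number lower, 4, and none higher, against 9.93% lower and 0.679% higher among all genes. At an unadjusted p under 0.05 that scaling had 2 members higher and 13 lower, against 2.00% and 28.0% of all genes.

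GSTU14 (AT1G27140) had the largest interaction. Its levels were -5.43, -4.87 and -4.87 in SvGRP at 150 mM, against -2.81, -2.47 and -2.75 in SvGRP at 0 mM. In wild type they were -3.24, -2.36 and -2.91 at 150 mM, against -3.04, -3.32 and -2.67 at 0 mM. The 3 SvGRP arrays at 150 mM lay below the other 9 arrays, which overlapped. Salt changed GSTU14 by -2.38 ± 0.25 (-2.31; adjusted p = 1.9e-05) in SvGRP, and its value in wild type was 0.17 ± 0.25 (-0.24, not called; adjusted p = 0.57). At 150 mM the difference between genotypes was -2.22 ± 0.25 (-2.31, not called; adjusted p = 3.4e-04), and the interaction was -2.55 ± 0.35 (-2.08, not called; adjusted p = 0.0061).

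GSTU28 (AT1G53680) had levels of -4.56, -4.90 and -4.16 in SvGRP at 150 mM, against -3.88, -3.50 and -4.04 in SvGRP at 0 mM. In wild type GSTU28 had -3.75, -3.45 and -3.66 at 150 mM, against -4.25, -4.54 and -4.16 at 0 mM. The groups did not overlap within a genotype, and their order was opposite in the 2 genotypes. Salt changed it by -0.73 ± 0.20 (-0.50, not called; adjusted p = 0.0076) in SvGRP and by 0.70 ± 0.20 (0.57, not called; adjusted p = 0.011) in wild type. The interaction was -1.43 ± 0.28 (-1.07, not called; adjusted p = 0.017), and GSTU28 was lower in SvGRP at 150 mM, with a difference of -0.92 ± 0.20 (-0.64, not called; adjusted p = 0.0077).

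GSTF11 fell with salt in SvGRP, with a change of -1.20 ± 0.15 (-1.11; adjusted p = 4.8e-05), and was at -0.22 ± 0.15 (0.00, not called) in wild type. Its interaction was -0.98 ± 0.21 (-1.12, not called; adjusted p = 0.022), which ended without replicate 2 of SvGRP at 0 mM (-0.90, adjusted p = 0.056). GSTU20 likewise fell with salt in SvGRP, with a change of -0.67 ± 0.16 (-0.67, not called), and was at 0.23 ± 0.16 (0.30, not called) in wild type. Its interaction was -0.90 ± 0.22 (-0.97, not called; adjusted p = 0.039), and that call was lost when any array but replicates 1 and 3 of SvGRP at 150 mM and replicate 1 of wild type at 0 mM was left out (-0.96 to -0.83, adjusted p up to 0.094), and with its second probe (-0.67).

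GSTU3 had a fitted interaction of 1.61 ± 0.42 (2.36, not called; adjusted p = 0.045), which is no bound because its probe was dim in SvGRP at 0 mM. The GSTU3 call was lost when any array but replicate 1 of SvGRP at 150 mM and replicate 3 of SvGRP at 0 mM was left out (1.46 to 1.83, adjusted p up to 0.087), and under E1A scaling (1.41). GSTU21 had an interaction of 0.95 ± 0.22 (0.68, not called; adjusted p = 0.030), with a smaller fall in SvGRP than in wild type. Its probe was dim on 2 of 3 wild-type arrays at 150 mM, so the size of this interaction is uncertain. The GSTU21 call was lost when any array but replicate 1 of SvGRP at 150 mM, replicate 2 of SvGRP at 0 mM and replicates 1 and 3 of wild type at 150 mM was left out (0.84 to 0.99, adjusted p up to 0.074), and under E1A scaling (0.75).

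**Figure D4:**
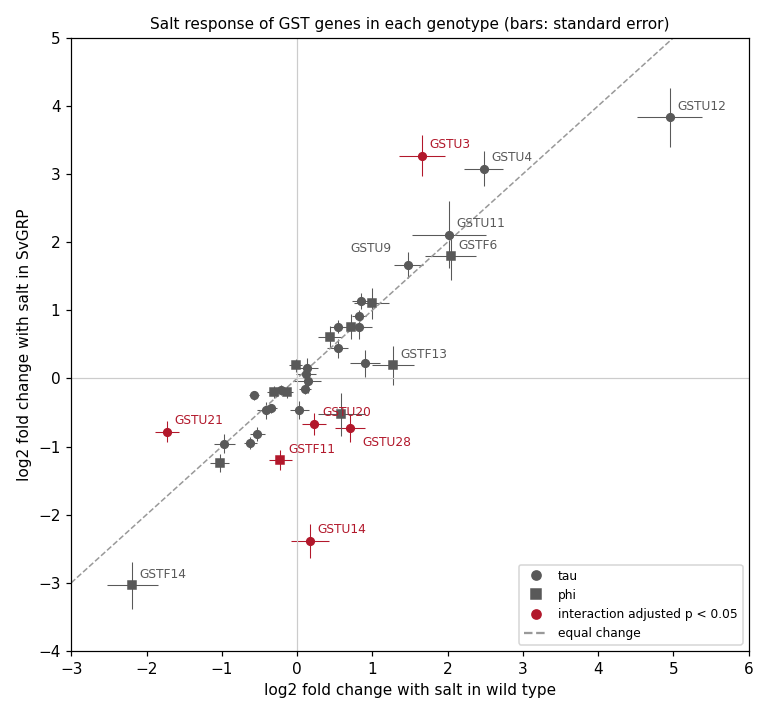
Log2 change with salt in SvGRP (vertical axis) against that in wild type (horizontal axis) for the 39 tested members, tau as circles and phi as squares, with standard errors as bars and equal change as a dashed line. The 6 members in red had a called interaction without slide in the fit, with GSTU14 at -2.38 in SvGRP and 0.17 in wild type farthest from the line. The 2 axes share no arrays.

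Root markers were mixed, with 3 of 6 called lower in the interaction and none higher, where 2 members were called higher and 4 lower. Of the 6 root markers, COBL9, EXP7 and RHD2, which act in root hair growth, fell with salt in SvGRP, with changes of -2.23 (-1.87), -1.70 (-1.14, not called) and -0.80 (-0.50, not called), and had values of 0.65, 0.92 and 0.23 in wild type that did not pass the test. Their interactions were -2.89 (-2.32, not called), -2.62 (-1.96, not called) and -1.03 (-0.68, not called), and all 3 were lower in SvGRP at 150 mM. COBL9 was between -4.61 and -3.03 in SvGRP at 150 mM and between -1.84 and -1.10 in SvGRP at 0 mM, against -1.42 to -1.01 in wild type at 150 mM and -2.29 to -1.52 in wild type at 0 mM. The other 3 root markers gave no called interaction: WOX5, of the root stem cell niche, rose with salt by 1.02 (1.38) in SvGRP and 0.78 (0.67) in wild type, PHO1, of the root vasculature, fell, with differences of -1.95 (-2.03) and -1.68 (-1.76), and SCR, of the endodermis, was at -0.14 and -0.08 without passing the test. Of the 5 shoot markers 4 fell with salt in SvGRP and 5 in wild type, with no called interaction in limma and 2 higher at an unadjusted p under 0.05. Between genotypes the shoot markers RBCS1A and CAB1 were lower in SvGRP at 0 mM, with differences of -0.28 and -0.29, and TMM was higher at 150 mM, by 0.31. The root marker SCR was higher in SvGRP at 0 mM, by 0.24. None of these 4 was called with slide in the fit. The values of RBCS1A and CAB1 at 0 mM turned positive, at 0.08 and 0.07, under E1A scaling. No root or shoot marker was dim on any array. The part of these markers in the GST differences was not tested, and in RNA of whole seedlings fewer cells of a type and less RNA per cell cannot be told apart.

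**Figure D5:**
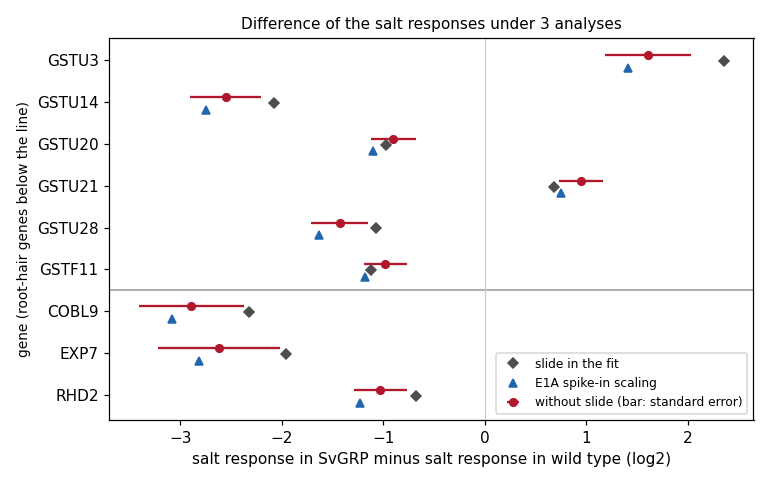
Interaction on the log2 scale (horizontal axis, salt response in SvGRP minus salt response in wild type) of the 6 members called and of the root-hair genes COBL9, EXP7 and RHD2, without slide (circles, with standard error), with slide in the fit (diamonds) and under E1A scaling (triangles). Each gene keeps its side of 0 under the 3 analyses, and none of the 6 members was called with slide in the fit. Root and shoot markers without a called interaction are not drawn.

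Other genes of the glutathione pathway gave a mixed picture with salt. Of 13 other glutathione S-transferase genes, which were TT19 and the genes of further classes, 5 rose and 7 fell in SvGRP, against 5 and 6 in wild type, with medians of -0.24 and 0.00. TT19, the phi enzyme needed for anthocyanin accumulation, rose by 4.29 (4.12) in SvGRP and 5.16 (5.19) in wild type, and DHAR1, a dehydroascorbate reductase, by 0.99 (1.09) and 0.95 (1.09). Of 4 glutathione supply genes, 1 rose and 2 fell in each genotype. The riser was GR1, a glutathione reductase, at 0.86 (0.89) in SvGRP and 0.70 (0.76) in wild type, while GSH1, of the first step of glutathione synthesis, did not pass the test in either.

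Of 8 tested genes of conjugate transport and breakdown, 5 rose and 1 fell in each genotype, with medians of 0.28 in SvGRP and 0.31 in wild type. ABCC4, an ABC transporter, rose by 1.33 (1.43) in SvGRP and 1.03 (1.08) in wild type. GGT2, a gamma-glutamyl transferase, was dim in both groups at 0 mM and was at least 1.67-fold higher with salt in SvGRP and at least 1.37-fold in wild type. GGT2 passed the filter on dim probes only through SvGRP at 150 mM, where it was high. Its rise, counted among the 5, is therefore not independent of that filter. The vacuolar conjugate transporter ABCC2 rose by 0.37 (0.38) and 0.52 (0.50).

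Of 10 genes of the xenobiotic response and its TGA factors, 2 rose and 5 fell in SvGRP, against 2 and 2 in wild type. UGT74E2, a glucosyltransferase for the auxin indole-3-butyric acid, rose by 2.36 (2.44) in SvGRP and 2.13 (2.11) in wild type, while the cytochrome P450 CYP81D11 was at -1.14 (-1.23) and -0.83 (-0.77). Of 4 tested camalexin synthesis genes, 2 rose and 1 fell in SvGRP, against 3 and none in wild type in limma. At an unadjusted p under 0.05 there were 3 higher and 1 lower in SvGRP, and 3 higher and none lower in wild type. PAD3, of the last step of camalexin synthesis, rose by 1.00 (0.84, not called) in SvGRP and 2.05 (1.88) in wild type, and CYP79B2 by 0.56 (0.78) and 1.18 (1.21). These genes sit beside the rises of GSTF6 in both genotypes, and the 4 gave no called interaction in limma, although 3 were lower at an unadjusted p under 0.05. At 150 mM 3 of the 4 were called lower in SvGRP than in wild type without slide in the fit, with a median difference of -0.72. By comparison, 18.6% of all genes were called lower there. CYP71A13, among the 4, was dim on at least 2 of 3 arrays in every group but wild type at 150 mM. It passed the filter on dim probes only through that group, where it was high. Its rise in wild type, among the 3 called there, is therefore not independent of that filter, nor are the medians that include it.

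In 14 members more than 1 probe passed the filter, so their changes could be read from more than 1 probe. Probes of a gene disagreed in the direction of a call in 1 case only, GSTU19 at 150 mM. Signs also differed, without such calls, for GSTF9 with salt in wild type, for GSTU4 and GSTU19 between genotypes at 0 mM, and for GSTU4, GSTU17, GSTF7 and GSTF9 in the interaction.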

How the data were processed

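Total RNA of 12 seedling samples was hybridised to one-colour Agilent arrays. Per the file headers, the deposited intensity values are processed signals of Agilent Feature Extraction, which the submitters' processing notes also name; the deposited series table holds log2 values of the same arrays, per the file headers, whose differences between arrays matched the scanner values. No genome build is named in the labels or files.

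Each array was scaled to its 75th percentile on the log2 scale. A probe was kept when it lay above the 20th percentile of its array on all arrays of at least 1 group. Of several probes of a gene, that of highest mean was used. All 12 arrays were fitted together with limma 3.58.1 in R 4.3.3, with a mean per group, 8 residual degrees of freedom and Benjamini-Hochberg adjustment over 26796 genes and unnamed probes. The code was tested on simulated data.

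The members and lists were chosen with earlier results of these data known. Any member could be named, levels on every array were given for the 3 called members with the largest change in each comparison and 10 genes of well-known role, and at most 4 called genes were named from each other list. Of the transport list ABCC3 and of the camalexin list GGP1 had no probe. Alternatives covered scaling, filters, probe choice, slide, replicate number, a 2-fold threshold and leaving out each array.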

Additional observations from a re-analysis of the deposited data

Results flagged for a closer look

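The salt response of 6 members differed between genotypes by a test of the difference itself, the interaction in limma without slide in the fit, which is the response in SvGRP minus that in wild type. It was -2.55 for GSTU14, -1.43 for GSTU28, -0.98 for GSTF11 and -0.90 for GSTU20, and 1.61 for GSTU3 and 0.95 for GSTU21. With slide in the fit the values were -2.08 for GSTU14, -1.07 for GSTU28, -1.12 for GSTF11, -0.97 for GSTU20, 2.36 for GSTU3 and 0.68 for GSTU21, with adjusted p-values between 0.055 and 0.38, so that none passed the test. The value of GSTU3 is a fitted one, because its probe was dim on the 3 arrays of SvGRP at 0 mM. That of GSTU21 is uncertain in size, because its probe was dim on 2 of 3 arrays of wild type at 150 mM. In groups of 3 arrays, single arrays were not tested for standing apart.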

How the results depend on the processing

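The members called higher and lower, 14 and 14 for salt in SvGRP, 17 and 11 for salt in wild type, 2 and 8 for SvGRP against wild type at 0 mM, 4 and 9 at 150 mM, and 2 and 4 for the interaction, changed by over 1.5 times as follows. With slide as a fixed term, 11 rose with salt in wild type, 0 were higher and 0 lower at 0 mM, 0 higher and 1 lower at 150 mM, and the interaction had 0 and 0 in limma. At an unadjusted p under 0.05 that interaction had 3 higher and 5 lower, against 5.22% and 7.43% of all genes. With slide as a random block, whose estimated correlation was -0.164, 15 were lower at 150 mM and 8 in the interaction. Under E1A scaling 8 fell with salt in SvGRP and 4 in wild type, 16 were higher and 3 lower at 0 mM, and 0 were higher in the interaction. With a change of at least 2-fold also required, the counts higher and lower were 8 and 4, 7 and 3, 0 and 3, 0 and 5, and 1 and 2 in the order above. Without a filter on dim probes 1 interaction was higher, and with the strict filter, which tested 36 members, 0. With the replicate block 1 member was higher at 0 mM, and the interaction had 0 higher and 2 lower. Without any 1 array, the counts higher and lower ranged over 13 to 15 and 13 to 17 for salt in SvGRP, 16 to 18 and 10 to 11 for salt in wild type, 1 to 4 and 4 to 8 at 0 mM, 2 to 4 and 8 to 12 at 150 mM, and 0 to 3 and 2 to 6 for the interaction.

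Of the 195 member differences, 38 changed sign under E1A scaling and 10 under quantile normalization, of which 7 and 2 had a call in at least 1 of the fits compared. The 7 were those of GSTU7 (0.09), GSTU26 (0.02), GSTU27 (0.21), GSTF8 (0.12) and GSTF9 (0.41) for salt in wild type, and GSTU27 (0.32) and GSTF4 (0.34) at 0 mM. The 2 under quantile normalization were those of GSTU19 for salt in SvGRP (0.12) and GSTF9 for salt in wild type (0.50). The cause was not tested. Of the same differences, 43 lost and 1 gained a call with slide as a fixed term, 23 lost and 23 gained one under E1A scaling, 4 lost and 4 gained one under quantile normalization, and none changed with the authors' series table. Replicate numbers did not pair the samples: the deviations of 18 same-numbered pairs correlated at -0.18 to 0.22, 2 of them over 0.1, and an array correlated best with its own number in 5 of 36 cases. The replicate block ended 9 gene calls. The planned normexp correction was not run, since the signal columns it needs are not among those of the files analysed here.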
